A study of Mus musculus with 12 samples.

Results

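TFEB-ERT2 cells were compared with vector cells before any ligand was given, in the 6 vehicle libraries of the 12 in the series. Both lines came from 1 B cell lymphoma, taken from a lymph node of a C57BL/6 mouse that carried the transgenes Eµ-Myc and Eµ-rtTA, and both grew in medium with interleukin-7. Eµ is the immunoglobulin heavy chain enhancer, active in B cells, so Myc is driven in every group compared here. Vector cells had received a bicistronic retrovirus that carries only puromycin resistance. TFEB-ERT2 cells had received the resistance gene and TFEB with serine 211 changed to alanine, fused to ERT2, an altered hormone-binding part of the human estrogen receptor. Vehicle was given for 4 days, with 3 libraries in each line. The remaining 6 libraries are the same lines given 4-hydroxytamoxifen (4-OHT), the ligand of ERT2, for 4 days at a dose written as 250 nM in the labels' protocols and with a different unit in the series' design text. All 13111 of 23479 genes with a normalized read count of at least 10 in at least 3 of the 12 libraries were tested. The labels do not say whether the libraries of a group came from separate transductions or cultures, so the p-values reflect only the variation among these libraries, which may be technical. The presence of the fusion and any other difference between the 2 transduced lines cannot be told apart.

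TFEB is a transcription factor that binds a short E-box-like motif in front of genes of the lysosome, the organelle in which cells digest proteins, lipids and sugars, and of autophagy, which delivers cargo to it. When amino acids are plentiful, the kinase complex mTORC1 on the lysosome's surface phosphorylates TFEB and keeps it in the cytoplasm. Changing the serine removes one such site, and ERT2 holds a fused protein in the cytoplasm, bound to chaperones, until 4-OHT is given. The vehicle comparison asks how the lines differed without the ligand.

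In vehicle 705 of 13111 genes (5.38%) differed between the lines at an adjusted p under 0.05 (limma on log2(value + 1), Benjamini-Hochberg adjustment), and these are the genes called below. In TFEB-ERT2 cells 379 (2.89%) were higher and 326 (2.49%) were lower. The difference was at least 2-fold for 246 genes (1.88%), 132 higher and 114 lower. The median log2 difference was 0.05 over all tested genes, and the median size was 0.63 over the called genes. The 3 values of one line did not overlap the 3 of the other for 689 of the 705, against 2834 of all tested genes (21.6%). The total fell to 440 calls without vector library 2 and 433 without vector library 3, and 192 of the 705 were called under all 25 alternative analyses that tested them.

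**Figure D1:**
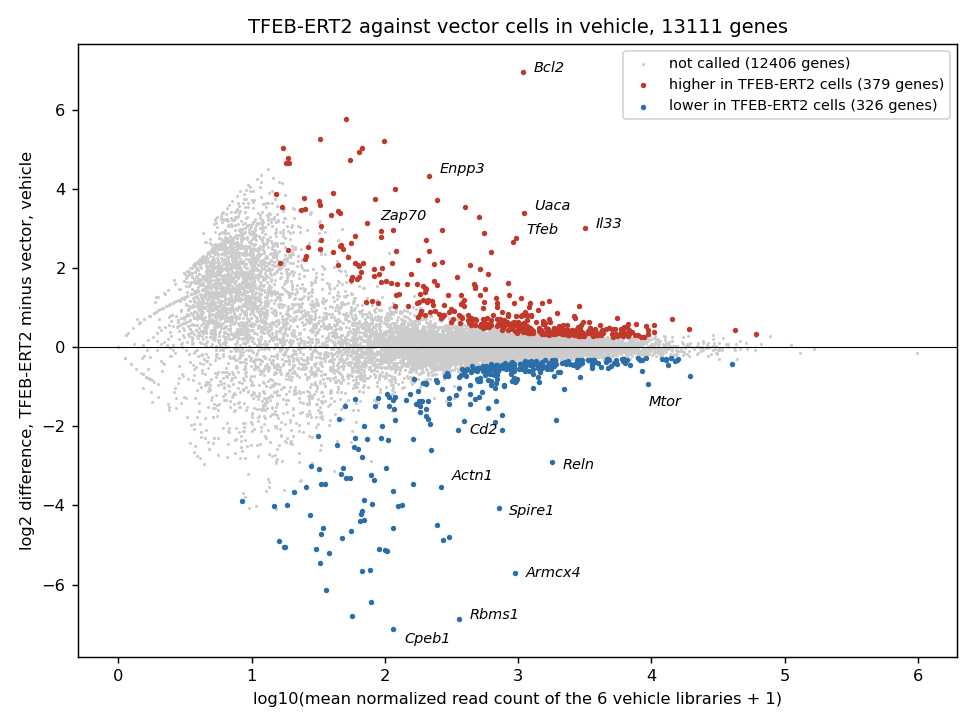
Each point is 1 of 13111 genes, by its mean normalized read count in the 6 vehicle libraries (log10 of the mean plus 1) and its log2 difference, TFEB-ERT2 minus vector cells. The 379 genes called higher are red and the 326 called lower are blue. Bcl2 is the highest point (log2 6.96) and Cpeb1 the lowest (log2 -7.12), and low-level grey points spread further upward than downward.

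Libraries differed in depth and in how many rarely read genes they picked up. Whole reads, recovered from the steps of the values, numbered 11849029 to 22109283 per library, and the fewest were in TFEB-ERT2 vehicle library 3. A count of 0 allows an expected count of up to 3 reads, or 2.21 to 4.15 normalized read counts in the vehicle libraries. That limit covers counting error only. Genes with at least 1 read numbered 15342, 12821 and 11390 in the vector vehicle libraries and 16471, 12089 and 15817 in the TFEB-ERT2 ones. On the first principal component of all tested genes (52.7% of the variance) TFEB-ERT2 vehicle library 3 stood at 140 and library 2 at -35.1, with the vector libraries between -72.8 and -13.3. When only the 8773 genes averaging 100 or more were used (55.5% of the variance) the lines separated, with vector libraries at -21.2 to -16.9 and TFEB-ERT2 libraries at 14.3 to 22.5. Vector 4-OHT library 2 had 19057 genes with a read, against 12602 and 11892 in its group. TFEB-ERT2 4-OHT library 2 had 19250, against 12204 and 16563 in its group. Without vector 4-OHT library 2 and TFEB-ERT2 vehicle library 3, 606 genes were called, 500 of them among the 705. That choice was made after seeing the data, and it kept TFEB-ERT2 4-OHT library 2.

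Tfeb (chr17:47737037-47792416, mm10), the gene that the construct adds, checks the labels. Vector libraries 1 to 3 held 252, 255 and 223 normalized read counts of Tfeb, and TFEB-ERT2 libraries held 1597, 1955 and 1476. All TFEB-ERT2 values lay above all vector values, 6.83-fold higher (log2 2.77 ± 0.15 SE, adjusted p = 2.8e-14, limma). Reads of the mouse gene and of the construct cannot be told apart, and the sources used here do not give the species of the construct's TFEB. In 4-OHT the gap was smaller, with 231, 195 and 238 in vector cells and 702, 581 and 711 in TFEB-ERT2 cells, and the line difference itself was smaller there by a log2 of -1.19 ± 0.21 SE (adjusted p = 0.00011, limma interaction). The relatives of Tfeb gave no call. Mitf stood at 21.4, 7.47 and 55.3 in TFEB-ERT2 cells against 22.9, 22 and 79.2 in vector cells. Tfe3 was listed at 0 in all libraries of both lines in vehicle except TFEB-ERT2 library 3 (23.5). Tfec was listed at 0 in all of them except TFEB-ERT2 library 1 (3.43) and was not tested. Esr1, the mouse estrogen receptor gene, had 236, 285 and 162 in TFEB-ERT2 cells and 158, 191 and 205 in vector cells (adjusted p = 0.65, limma), so the groups overlapped. Myc was high in both lines, at 29850, 32093 and 30020 in TFEB-ERT2 cells and 32275, 31060 and 33633 in vector cells (adjusted p = 0.68, limma).

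The largest rise belonged to Bcl2 (chr1:106538176-106714290), the founding survival gene of its family, which blocks the release of death signals from mitochondria. Vector libraries held 13.3, 39.4 and 7.84 normalized read counts and TFEB-ERT2 libraries held 2052, 2373 and 2021. Bcl2 was therefore low in every vector library and 124.6-fold higher in TFEB-ERT2 cells (log2 6.96 ± 0.40 SE, adjusted p = 7.2e-14, limma), with no overlap, and by a log2 of 7.58 without vector library 2. In 4-OHT it held 20.4, 57 and 14.4 in vector cells and 1145, 851 and 954 in TFEB-ERT2 cells, 36.6-fold higher. Bcl2 was the 1 gene called of 15 tested genes of the BCL2 family, whose median log2 difference was -0.09. That share, 6.67%, was near the 5.38% of all tested genes. Its neighbour Phlpp1, a phosphatase of AKT, was also called higher, at a mean of 752 in vector cells and 1041 in TFEB-ERT2 cells (adjusted p = 0.031, limma).

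**Figure D2:**
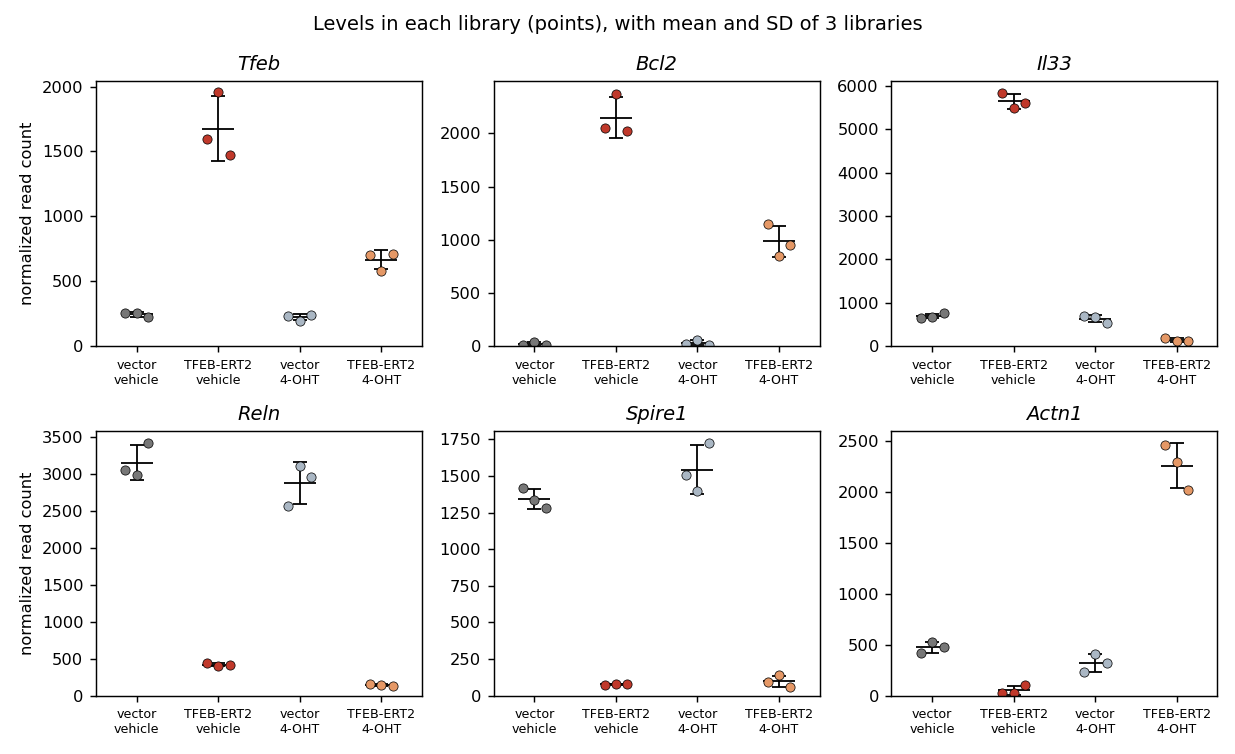
Normalized read counts of 6 genes in each library (points), with the mean and SD of 3 libraries (bars), for vector and TFEB-ERT2 cells in vehicle and in 4-OHT. Tfeb and Bcl2 were higher in TFEB-ERT2 cells in both treatments and Reln and Spire1 lower in both, while the line difference of Il33 and Actn1 had opposite signs in vehicle and 4-OHT.

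The other genes among the 15 largest rises (those with a mean of at least 100 in vehicle) were of mixed function. Enpp3, a cell-surface enzyme that cuts extracellular nucleotides, had 26.6, 20.5 and 13.1 in vector cells and 377, 462 and 382 in TFEB-ERT2 cells, a 20.04-fold rise (adjusted p = 1.6e-07, limma). Uaca, a regulator of apoptosome assembly, had 126, 190 and 286 against 2102, 2068 and 1823, a 10.4-fold rise (adjusted p = 8.4e-14). Both genes sat at low levels in vector cells and rose in all 3 TFEB-ERT2 libraries. Pcp4, a small calmodulin-binding protein, rose 9.73-fold, from 93.7, 77.9 and 112 to 891, 901 and 969. Zap70, a kinase best known from T cell receptor signalling, had 63.4, 78.7 and 41.8 in vector cells and 407, 462 and 539 in TFEB-ERT2 cells, 7.74-fold higher. Gabarapl1, a ubiquitin-like protein that is linked to lipid on autophagosomes, rose 16.0-fold and is described with the autophagy genes. The set also held Paip2b, a repressor of translation (7.41-fold), Plag1, a zinc-finger transcription factor (6.49-fold), Mc1r, the melanocortin receptor (6.36-fold), and BC018242 (5.42-fold). Mc1r has Tcf25 and Tubb3 beside it, and both were called higher as well (log2 0.30 and 0.81). The sources used here do not say whether reads were counted by strand, so reads that run past one gene into the next cannot be told apart. Selenbp1, a selenium-binding protein, was 7.85-fold higher, but its call was lost without any 1 of 5 vehicle libraries, all but vector library 2 (adjusted p 0.053 to 0.148, limma), without which the log2 difference was 3.68 in place of 2.97. Of the 15, 13 were called higher in 4-OHT too, 1 was called lower there, and 14 kept their call under every alternative.

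In Lrp1, Fndc1 and Il33, 3 members of that set, the line difference in 4-OHT differed from that in vehicle. Lrp1, a large endocytic receptor, had 64.2, 56.7 and 63.6 in vector cells and 781, 687 and 722 in TFEB-ERT2 cells in vehicle, 11.7-fold higher. In 4-OHT the groups overlapped, at 65.5, 152 and 54.1 against 132, 139 and 120 (interaction log2 -2.88, adjusted p = 8.6e-06, limma). Fndc1, a fibronectin-domain protein, went the other way, with a 13.1-fold difference in vehicle (from 52.4, 36.2 and 19.2 to 540, 414 and 401) and a 42.9-fold one in 4-OHT (interaction log2 1.71, adjusted p = 0.0019). Il33 (chr19:29925113-29960718) encodes an alarmin cytokine that is stored in the nucleus. In vehicle it held 656, 672 and 753 in vector cells and 5831, 5504 and 5610 in TFEB-ERT2 cells, 8.15-fold higher (log2 3.03 ± 0.14 SE, adjusted p = 1.2e-15, limma). In 4-OHT the vector libraries held 700, 668 and 539, whereas TFEB-ERT2 libraries held 184, 114 and 124, 4.57-fold lower. All vehicle libraries of TFEB-ERT2 cells were thus above the vector cells and all their 4-OHT libraries below them, and the difference between the 2 line effects was a log2 of -5.22 ± 0.20 SE (adjusted p = 4.5e-18, limma interaction).

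Among the 15 largest falls, several genes were close to silent in TFEB-ERT2 cells. Cpeb1, a protein that controls the translation of stored mRNA, had 255, 212 and 218 in vector cells and 3.43, 0 and 0 in TFEB-ERT2 cells (log2 -7.12 ± 0.64 SE, adjusted p = 2.2e-09, limma). Rbms1, an RNA-binding protein, had 688, 741 and 685 against 6.86, 26.7 and 0 (log2 -6.87, adjusted p = 3.3e-09). For both genes every TFEB-ERT2 library lay far below every vector library. The log2 difference of Cpeb1 was -7.84 without TFEB-ERT2 library 1, and that of Rbms1 was -7.98 without library 2 and -5.58 without library 3. Armcx4, an armadillo-repeat gene of the X chromosome, fell from 1852, 1861 and 1854 to 44.6, 11.7 and 74.7, 52.6-fold (log2 -5.72, or -4.98 without TFEB-ERT2 library 2). Spire1, which nucleates actin filaments, fell from 1416, 1334 and 1282 to 76.3, 83.2 and 80.2, 16.6-fold (adjusted p = 3.9e-15). Reln (chr5:21884454-22344705) encodes reelin, a secreted matrix protein known from brain layering. It had 3046, 2988 and 3417 in vector cells and 446, 396 and 420 in TFEB-ERT2 cells, 7.46-fold lower (adjusted p = 2.1e-17). In 4-OHT Reln held 155, 141 and 132 in TFEB-ERT2 cells (log2 -4.32 against vector cells), a larger difference than in vehicle (interaction log2 -1.42, adjusted p = 8.5e-08).

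The other falls included transcriptional regulators and structural genes. Trps1, a GATA-type repressor, was 29.3-fold lower, Zfp362, a zinc-finger gene, 27.6-fold lower, and Bcorl1, a corepressor, 22.4-fold lower. Eif3h, which lies beside Trps1, was called lower too (log2 -0.32, adjusted p = 0.026, limma). Cldn10, a tight-junction claudin, was 10.96-fold lower, Pdlim1, a cytoskeletal adaptor, 8.34-fold lower, and Mbp, myelin basic protein, 12.5-fold lower. Lrrk1, a kinase of endosomal traffic (35.7-fold lower), and Atrnl1, an attractin-like membrane protein (15.8-fold lower), lost their call without the trend in the variance prior (adjusted p = 0.13 and 0.077, limma). Cacna2d1, a calcium channel subunit (23.9-fold lower), also lost it without TFEB-ERT2 vehicle library 2 (adjusted p = 0.081). Without that library the log2 difference was -3.93 in place of -5.16 for Lrrk1, -3.02 in place of -4.58 for Cacna2d1, -4.04 in place of -4.79 for Zfp362 and -2.95 in place of -3.64 for Mbp. Without TFEB-ERT2 library 1 it was -5.91 for Lrrk1, and without library 3 it was -5.85 for Cacna2d1, -4.30 for Mbp and -4.22 in place of -3.53 for Actn1. Actn1, the actin crosslinker alpha-actinin, had 416, 526 and 482 in vector cells and 23.1, 25.6 and 106 in TFEB-ERT2 cells, 11.5-fold lower in vehicle. In 4-OHT it held 229, 407 and 323 against 2457, 2287 and 2021, 7.21-fold higher, so the sign of the line difference turned (interaction log2 6.38 ± 0.45 SE, adjusted p = 2.4e-12, limma). Of the 15 falls, 14 were called lower in 4-OHT, Actn1 was called higher, and 12 kept their call under every alternative.

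A small group of genes had 0 reads in every vehicle library of one line and at least 10 normalized read counts in every library of the other. Map10, a microtubule-associated gene, had 84.8, 135 and 117 in vector cells and 0 in all TFEB-ERT2 libraries, at least 27.0-fold lower when the group at 0 is set to the floor of 3 reads in its shallowest library. Hsd17b11, a lipid-droplet steroid dehydrogenase, had 67.1, 81.8 and 61.0 against 0, at least 16.9-fold lower, and Gtpbp10, a mitochondrial GTPase, 26.6, 27.5 and 44.4 against 0, at least 7.92-fold lower. These 3 kept their call under every alternative. The fold limits in this paragraph allow for counting error only, and libraries of a group differed beyond it. In 4-OHT the TFEB-ERT2 libraries held 0, 18.1 and 10.7 of Gtpbp10, so the limits are not firm. Foxf2, a forkhead factor, and Mxra8, a cell-surface protein, were at least 8.15-fold and 7.22-fold lower, but each call was lost without any 1 of the 3 vector vehicle libraries (adjusted p 0.061 to 0.129 and 0.067 to 0.1, limma). In the other direction Hoxb8 had 0 in all vector libraries and 29.1, 24.5 and 44.2 in TFEB-ERT2 cells, and its call was lost without any 1 of the 6 vehicle libraries (adjusted p 0.059 to 0.089). Acta1, C630020P19Rik, Ccdc177 and Ncan were likewise at 0 in all vector libraries and at 10 or more in all TFEB-ERT2 ones, and were not called.

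The line differences were next read in the 6 4-OHT libraries, which the vehicle comparison does not use, although the spread was estimated over all 12. In 4-OHT 3553 of 13111 genes (27.1%) were called, 13.6% higher and 13.5% lower in TFEB-ERT2 cells. Of the 705 genes called in vehicle, 358 (50.8%) were called the same way in 4-OHT, which is 10.1% of the 3553. A further 98 (13.9%, or 2.76% of the 3553) were called the opposite way, and 249 were not called. Among the 379 higher genes 191 (50.4%) stayed higher and 55 (14.5%) were lower, and among the 326 lower genes 167 (51.2%) stayed lower and 43 (13.2%) were higher. Of those with at least a 2-fold difference, 90 of 132 higher genes and 70 of 114 lower genes were called the same way, and 5 and 9 the opposite way. The difference between the line effects, which uses the vehicle values that chose the 705, was called for 304 of them, against 2066 of all tested genes (15.8%). The opposite count was 60 without TFEB-ERT2 vehicle library 2, and 56 without vector vehicle library 2 or 3.

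**Figure D3:**
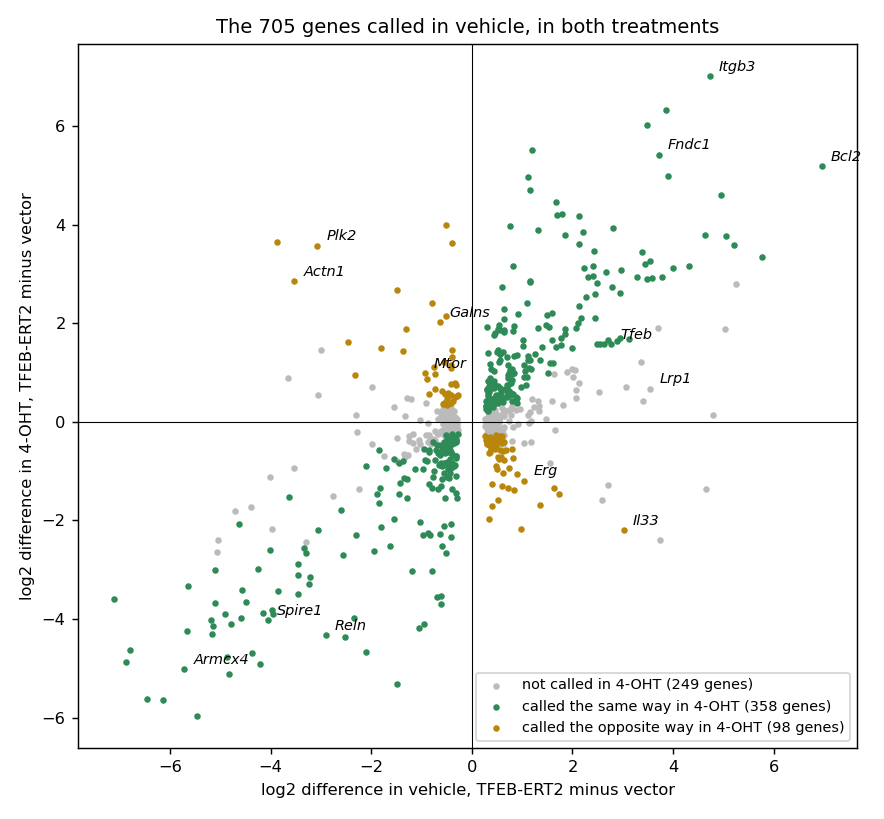
Log2 difference between TFEB-ERT2 and vector cells in vehicle (x axis) and in 4-OHT (y axis) for the 705 genes called in vehicle. The 358 genes called the same way in both (green) lie in the lower left and upper right, the 98 called the opposite way (gold) lie in the upper left and lower right, and 249 (grey) were not called in 4-OHT.

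Lysosomal genes are the best known targets of TFEB. Of 49 tested lysosomal hydrolases 1 was higher and 5 were lower in TFEB-ERT2 cells (12.2% called, against 5.38% of all tested genes), with a median log2 difference of -0.08, against 0.05 over all genes. In 4-OHT 31 of the 49 were higher and 2 lower, with a median of 0.78, against 13.6% and 13.5% of all tested genes. Gaa (chr11:119267963-119285458), which breaks down glycogen in the lysosome, had 1158, 1162 and 1122 in vector cells and 667, 575 and 669 in TFEB-ERT2 cells. All 3 TFEB-ERT2 values were below all vector values, 1.80-fold lower (log2 -0.85 ± 0.11 SE, adjusted p = 2.8e-06, limma). In 4-OHT Gaa stood at 939, 1107 and 955 in vector cells and at 1350, 1490 and 1632 in TFEB-ERT2 cells, 1.49-fold higher (interaction log2 1.43, adjusted p = 3e-08). Npc2, which hands cholesterol out of the lysosome, was 1.43-fold lower in vehicle, at 2996, 2951 and 2837 against 3637, 4575 and 4416, and 1.21-fold lower in 4-OHT. Gaa and Npc2 kept their call under every alternative.

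The remaining hydrolase calls were less stable. Galns, a sulfatase of keratan and chondroitin sulfate, was 1.56-fold lower in vehicle (524, 515 and 555 in vector cells against 452, 255 and 343) and 4.06-fold higher in 4-OHT (587, 451 and 436 against 2142, 1872 and 1941). Its vehicle call was lost without TFEB-ERT2 library 2 (adjusted p = 0.114, limma) or vector library 3 (0.062). It was also lost without the trend in the variance prior (0.161) and in the fit to the vehicle libraries alone (0.132). Sgsh, the heparan N-sulfatase, had 60.5, 53.5 and 96.7 in vector cells and 18.9, 19.2 and 18 in TFEB-ERT2 cells, 3.504-fold lower. That call was lost without TFEB-ERT2 library 1 or 2 or any 1 of the vector libraries (adjusted p 0.054 to 0.168, limma). The same held without the variance trend (0.088), in the fit to the vehicle libraries alone (0.077) and without the filter on low values (0.097). In 4-OHT Sgsh was 2.84-fold higher. Psap, the precursor of activators of lipid breakdown (log2 -0.42), and Ctsz, a protease (log2 0.32), complete the count and were named after their values were seen. Of the 36 tested proteins of the lysosomal membrane, 1 was higher and 2 were lower (8.33% called, median log2 0.04), against 15 and 2 in 4-OHT. Without TFEB-ERT2 library 3 none of the 36 was lower, and 1 was higher. Lamp1, the abundant coat protein of that membrane, had 1545, 1682 and 1588 in vector cells and 1234, 1355 and 959 in TFEB-ERT2 cells, 1.37-fold lower. Without TFEB-ERT2 library 3, its lowest value, the adjusted p was 0.069 (limma). The adjusted p was 0.112 without the variance trend and 0.095 in the fit to the vehicle libraries alone. In 4-OHT Lamp1 was 1.46-fold higher in TFEB-ERT2 cells, at 2298, 2096 and 2027 against 1484, 1456 and 1448.

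The promoters of Gaa, Sgsh and Lamp1 are shown because these genes were lower in vehicle, higher in 4-OHT and held the core of TFEB's known motif. Each runs from 250 bases before to 50 bases after the start of the RefSeq gene (GRCm38.p6, 5′ to 3′ on the gene's strand), and capitals mark TCACGTG, read on either strand, so that a match on the opposite strand is printed as CACGTGA. The window of Gaa lies at chr11:119267713-119268012 on the plus strand, Sgsh at chr11:119355461-119355760 on the minus strand and Lamp1 at chr8:13158911-13159210 on the plus strand.
Gaa: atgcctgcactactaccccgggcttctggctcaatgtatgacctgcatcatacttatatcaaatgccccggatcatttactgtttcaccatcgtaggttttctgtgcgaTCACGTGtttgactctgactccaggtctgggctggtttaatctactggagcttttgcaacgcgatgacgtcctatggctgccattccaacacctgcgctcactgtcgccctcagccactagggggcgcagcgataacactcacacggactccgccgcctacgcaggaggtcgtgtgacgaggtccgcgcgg
Sgsh: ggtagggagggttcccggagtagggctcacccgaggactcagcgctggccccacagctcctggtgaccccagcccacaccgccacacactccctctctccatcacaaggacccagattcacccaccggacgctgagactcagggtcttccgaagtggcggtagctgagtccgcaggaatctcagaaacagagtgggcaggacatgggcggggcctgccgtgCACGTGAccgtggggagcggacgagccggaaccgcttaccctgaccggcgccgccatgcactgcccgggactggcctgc
Lamp1: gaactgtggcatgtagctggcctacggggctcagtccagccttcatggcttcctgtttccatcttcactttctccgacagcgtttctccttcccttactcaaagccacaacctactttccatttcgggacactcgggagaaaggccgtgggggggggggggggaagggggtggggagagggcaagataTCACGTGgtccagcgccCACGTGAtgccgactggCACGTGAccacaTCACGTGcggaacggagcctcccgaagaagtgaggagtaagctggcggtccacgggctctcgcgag
Gaa and Sgsh hold 1 match each and Lamp1 holds 4. The motif, searched on both strands, was in 696 of 10271 tested genes with a promoter in the table (6.78%). It was in 13 of 296 genes called higher in vehicle (4.39%) and in 20 of 245 called lower (8.16%). For comparison it was in 162 of 1433 genes called higher in 4-OHT (11.3%) and 80 of 1405 called lower (5.69%). It was in 4 of 33 genes called lower in vehicle and higher in 4-OHT (12.1%) and in 4 of 41 called higher and then lower (9.76%). Of the other lysosomal genes called lower in vehicle, Atp6v0e held 2 matches that overlap in 1 stretch, read on both strands. Its vehicle call was lost in 14 of 25 alternatives. Npc2, Psap and Litaf held no match, and Galns and Atp6v1b2 were not matched to the table. A match is a run of letters in this window and not a measured binding site.

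The proton pump that acidifies the lysosome, the V-ATPase, gave 0 higher and 2 lower genes of 16 tested in vehicle (12.5% called), with a median log2 of -0.09, against 10 higher and 0 lower in 4-OHT. Without TFEB-ERT2 library 3, 1 of the 16 was lower. Atp6v1b2, the B subunit of its ATP-cleaving sector, had 601, 735 and 803 in vector cells and 367, 318 and 223 in TFEB-ERT2 cells. The groups did not overlap, and the 2.39-fold difference (adjusted p = 2.2e-06, limma) kept its call under every alternative. In 4-OHT it was 1.23-fold lower and not called. Of 48 autophagy genes 2 were higher and 1 was lower (6.25% called, median log2 -0.01), against 15 and 4 in 4-OHT, and 2 and 0 in vehicle without TFEB-ERT2 library 3. Gabarapl1 had 12.5, 26.8 and 6.10 in vector cells and 223, 206 and 236 in TFEB-ERT2 cells (16.0-fold, adjusted p = 2.7e-06), and 8.74-fold more in 4-OHT. Pik3r4, the scaffold of the lipid kinase complex that starts autophagosomes, had 862, 818 and 694 against 1424, 1584 and 1233 (1.78-fold, adjusted p = 5e-06), and 1.98-fold more in 4-OHT. For both genes the 2 line effects did not differ past the threshold (adjusted p = 0.53 and 0.65, limma interaction).

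**Figure D4:**
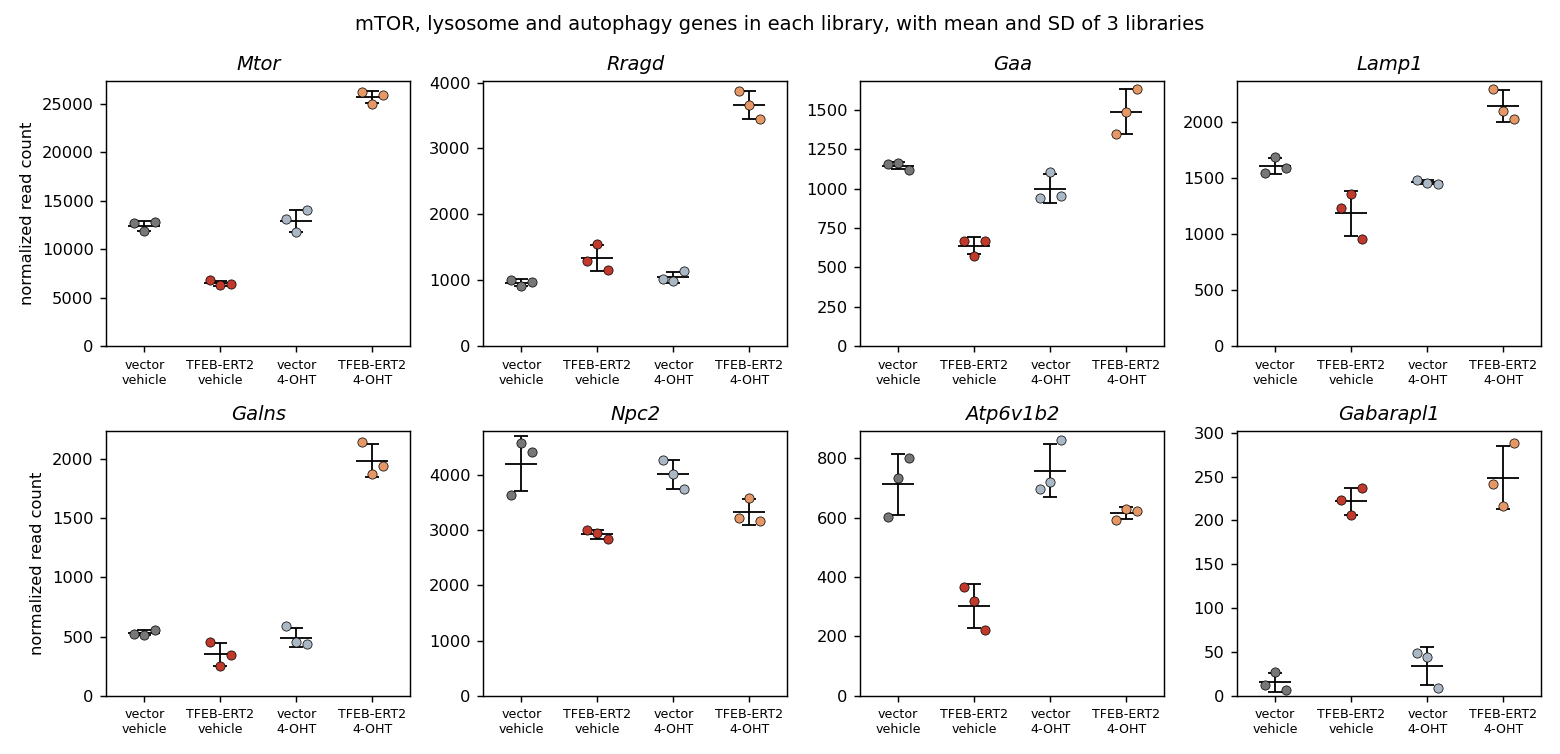
Normalized read counts of Mtor, Rragd and 6 lysosome or autophagy genes in each library (points), with the mean and SD of 3 libraries (bars). Mtor, Gaa, Lamp1 and Galns were lower in TFEB-ERT2 than in vector cells in vehicle and higher in 4-OHT, and Gabarapl1 was higher in both.

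Of 38 tested genes of mTORC1 and the Rag GTPases, which report amino acids to it, 1 was higher and 1 was lower (5.26% called, median log2 0.07). Mtor (chr4:148448582-148557685), the kinase itself, had 12671, 11846 and 12806 in vector cells and 6777, 6270 and 6457 in TFEB-ERT2 cells. Every TFEB-ERT2 library was far below every vector library, 1.91-fold lower (log2 -0.94 ± 0.08 SE, adjusted p = 9.9e-10, limma). In 4-OHT Mtor held 13107, 11737 and 13998 in vector cells and 26203, 25000 and 25962 in TFEB-ERT2 cells, 1.99-fold higher. The difference between the line effects was a log2 of 1.93 ± 0.11 SE (adjusted p = 3.8e-14, limma interaction). Rragd, the RagD subunit that carries TFEB-family factors to mTORC1, was 1.38-fold higher in vehicle (1007, 905 and 972 against 1298, 1547 and 1156) and 3.52-fold higher in 4-OHT. Its vehicle call was lost without TFEB-ERT2 library 2 (adjusted p = 0.060, limma). It was also lost without the variance trend (0.090) and in the fit to the vehicle libraries alone (0.073).

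Genes of B cell identity differed in both directions. Of 35 transcription factors of the B lineage 5 were higher and 4 lower (25.7% called, against 5.38% of all tested genes, median log2 0.08), against 7 and 16 in 4-OHT. Without TFEB-ERT2 vehicle library 3 the vehicle counts were 5 and 2. Erg, an ETS factor of early blood progenitors, had 1648, 1772 and 2247 in vector cells and 4087, 3604 and 3893 in TFEB-ERT2 cells, 2.06-fold higher (adjusted p = 1e-07, limma). In 4-OHT it was 2.29-fold lower, at 568, 573 and 583 against 1292, 1527 and 1157, so the order of the lines turned. Xbp1, a driver of the secretory program of plasma cells, had 2257, 2502 and 2458 against 4036, 3341 and 3811, 1.55-fold higher, and was 4.88-fold higher in 4-OHT. Erg and Xbp1 kept their call under every alternative. Tcf4, an E protein, was 1.37-fold higher in vehicle and 1.32-fold lower in 4-OHT, and its vehicle call was lost without the trend in the variance prior (adjusted p = 0.16). Of 23 genes of B cell precursors 3 were higher and 1 lower (17.4% called, median log2 0.10). The lower one, Cecr2, a chromatin protein, was 1.53-fold lower, at 7212, 6103 and 6948 against 9840, 9705 and 11356. Arpp21, a phosphoprotein of pre-B cells, was 3.00-fold higher (196, 249 and 248 against 800, 711 and 582), with the call lost only without the variance trend (adjusted p = 0.15). None of 9 tested defining B cell markers was called. The summed level of all 10 listed ones was 45680 to 48606 in vector cells and 45918 to 48266 in TFEB-ERT2 cells. The ranges of the lines thus overlapped, and both carried markers of the labelled cell type.

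Of 44 genes of the B cell receptor and its signalling 3 were higher and 5 lower (18.2% called, median log2 0.04), or 4 and 3 without TFEB-ERT2 library 3. Ptpn6, the phosphatase SHP-1 that dampens receptor signals, had 446, 622 and 529 in vector cells and 951, 1168 and 842 in TFEB-ERT2 cells, 1.85-fold higher (adjusted p = 4.6e-05, limma). Cxcr4, the chemokine receptor that holds B cells in the bone marrow, had 1170, 1265 and 1170 against 797, 892 and 756, 1.48-fold lower, and was 2.33-fold higher in 4-OHT. Both calls held under every alternative. Cd74, the invariant chain of MHC class II, was the 1 gene called of 31 for antigen presentation (3.23%, against 5.38% of all tested genes, median log2 -0.03). It had 748, 600 and 521 in vector cells and 1482, 1180 and 1825 in TFEB-ERT2 cells, 2.39-fold higher, and 2.59-fold higher in 4-OHT. Among 38 receptors of adhesion and migration 3 were higher and 2 lower (13.2% called, median log2 0.36). The median was -0.01 over the 17 of them that averaged 100 or more. Itgb3, an integrin subunit, had 3.69, 11.8 and 0 against 104, 109 and 95.4, 26.5-fold higher (adjusted p = 0.00042), and 129.8-fold higher in 4-OHT. Its log2 difference in vehicle, 4.73, was 5.58 without vector library 2 and 3.74 without vector library 3. Itga6, the laminin-binding integrin subunit, was 1.43-fold lower in vehicle and 4.43-fold higher in 4-OHT. Without the variance trend the adjusted p was 0.11 for Itgb3 and 0.12 for Itga6.

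Genes of cytokine pathways were read against the 2.89% of all tested genes called higher and the 2.49% called lower. Of 31 genes of the interleukin-7 receptor and JAK-STAT pathway, whose ligand was in the medium, 4 were higher and 0 lower (12.9% called, median log2 0.11), or 8 and 4 with DESeq2. Jak2 and Jak3, kinases of cytokine receptors, were 1.64-fold and 1.54-fold higher in vehicle and 1.86-fold and 1.33-fold higher in 4-OHT. Cish, a feedback inhibitor that STAT5 is known to induce, had 664, 650 and 503 in vector cells and 1063, 976 and 1180 in TFEB-ERT2 cells, 1.78-fold higher, and was 2.60-fold lower in 4-OHT. The vehicle call of Cish was lost without vector library 3 (adjusted p = 0.060, limma), and none of the 4 calls held under every alternative. Among 26 cytokines and chemokines 2 were higher and 0 lower (7.69% called), Il33 and Tnf, with a median log2 of 0.43, or 0.21 over the 6 that averaged 100 or more. Tnf, the inflammatory cytokine, stood at 8.11, 0.787 and 0 in vector cells and 29.99, 29.88 and 26.26 in TFEB-ERT2 cells (adjusted p = 0.0063), and its call was lost without the filter on low values and in the fit to the vehicle libraries alone. The log2 difference of Tnf, 3.55, was 4.47 without vector library 1 and 2.88 without vector library 3. Of 45 interferon response genes 3 were higher and 1 lower (8.89% called, median log2 0.09), or 2 and 0 without TFEB-ERT2 library 3. Isg20, an antiviral RNA-degrading enzyme, was 2.96-fold higher (148, 96.8 and 129 against 337, 335 and 430) and 2.31-fold higher in 4-OHT.

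Of 35 genes of sterol and fatty acid synthesis 5 were higher and 0 lower (14.3% called, against 5.38% of all tested genes, median log2 0.19). Scd1, which makes monounsaturated fatty acids, had 6217, 5782 and 6343 in vector cells and 9015, 9586 and 9082 in TFEB-ERT2 cells, 1.51-fold higher (adjusted p = 2.4e-06, limma). Scd2, a relative with the same activity, was 1.36-fold higher, and Fads1, a desaturase of polyunsaturated fats, 1.56-fold higher, and the calls of Scd1, Scd2 and Fads1 held under every alternative. In 4-OHT 6 of the 35 were higher and 9 lower, and Fads1 was 1.32-fold lower. Of 40 genes of glycolysis and HIF targets 5 were higher and 1 lower (15% called, median log2 0.29), against 5 and 16 in 4-OHT. Ndrg1, a hypoxia-induced gene of that list, had 56.8, 96.8 and 39.2 in vector cells and 294, 355 and 209 in TFEB-ERT2 cells, 4.59-fold higher (adjusted p = 0.0011, limma), and was 14.5-fold higher in 4-OHT. All its TFEB-ERT2 values lay above all vector values, and its vehicle call was lost without the variance trend (adjusted p = 0.09). Gapdh, a glycolytic enzyme often taken as a steady reference, was 1.34-fold higher in TFEB-ERT2 cells, at 47927, 52228 and 46696 against 33561, 39148 and 36677. That call was lost without the variance trend and in the fit to the vehicle libraries alone. Of 32 genes that ATF4 is known to control or that make amino acids, 0 were higher and 3 lower (9.38% called, median log2 -0.14), or 0 and 1 without TFEB-ERT2 library 3. Psat1, an enzyme of serine synthesis, had 3351, 3880 and 3802 against 2378, 2330 and 1877, 1.68-fold lower (adjusted p = 9.4e-07), and was 2.17-fold higher in 4-OHT.

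The remaining lists are given with the share of their tested genes that was called, against 5.38% of all tested genes. Of 25 genes of the p53 pathway 1 was higher and 2 lower (12%, median log2 -0.04). Polk, a DNA polymerase that copies past damage, was 1.44-fold higher (817, 888 and 861 against 1224, 1287 and 1187), and held under every alternative. Plk2, a kinase that p53 induces, was low in both lines, at 26.6, 56.7 and 75.8 in vector cells and 10.3, 17.1 and 0 in TFEB-ERT2 cells, 8.43-fold lower, but 11.9-fold higher in 4-OHT. Its vehicle call was lost without the variance trend and in the fit to the vehicle libraries alone, and its log2 difference, -3.08 over all libraries, was -1.80 without TFEB-ERT2 library 3 and -3.88 without library 2. Of 29 Notch pathway genes 0 were higher and 2 lower, Hes6 and Dtx1 (6.9%, median log2 0.11). Dtx1, an E3 ligase of that pathway, was 2.55-fold lower (337, 279 and 266 against 113, 70.4 and 187), and its call was lost without the variance trend (adjusted p = 0.09, limma). Higher and lower counts were 2 and 0 of 31 for TGF-beta and BMP genes (6.45%), 1 and 2 of 60 for the cell cycle (5%), and 0 and 4 of 45 for MYC and its targets (8.89%). They were 1 and 1 for 73 genes of oxidative phosphorylation (2.74%), 28 of the unfolded protein response (7.14%), 25 immediate early genes (8%) and 26 NF-kB genes (7.69%). They were 2 and 0 for 9 estrogen-related genes (22.2%) and for 17 imprinted or oncofetal genes (11.8%), and 0 and 0 for 2 sex chromosome genes. Xbp1 was 1 of the 2 estrogen-related calls and is also counted with the B lineage factors, unfolded protein response and plasma cell markers. Without TFEB-ERT2 library 3 the counts were 0 and 0 for TGF-beta, oxidative phosphorylation and immediate early genes, 0 and 1 for MYC, 1 and 1 for the cell cycle, and 1 and 0 for the unfolded protein response and the estrogen-related genes. edgeR called 0 of the TGF-beta genes. The medians of these lists ran from -0.10 (MYC) to 0.55 (imprinted), the latter 0.22 over the 7 imprinted genes that averaged 100 or more.

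Of 16 tested Hox and TALE genes, which set position along the body axis and act in early blood cells, 4 were higher and 0 lower (25% called, against 5.38% of all tested genes), or 2 and 0 without TFEB-ERT2 library 3 and 1 and 0 with edgeR. Their median log2 was 1.16, but 13 of the 16 averaged under 100, and over the other 3 it was -0.30. All 4 were low-level genes of the Hoxb cluster. Hoxb4 had 8.85, 11 and 0 in vector cells and 66.8, 63.0 and 89.8 in TFEB-ERT2 cells, and Hoxb7 had 0, 1.57 and 0 against 27.4, 40.5 and 33.2. Hoxb5 had 25.8, 11.8 and 28.7 against 107, 86.4 and 89.8. None held under every alternative. Hoxb4 was lost without any 1 TFEB-ERT2 library or vector library 3 (adjusted p 0.052 to 0.146, limma), with a log2 difference of 3.90 over all libraries, 4.55 without vector library 2 and 2.75 without vector library 3. Hoxb5 was lost without TFEB-ERT2 library 1 (0.057) or vector library 2 (0.106). TFEB-ERT2 libraries 1 and 3 also had the most genes with at least 1 read among the vehicle libraries (16471 and 15817, against 11390 to 15342 in the vector vehicle libraries). The part of that number in the differences of low-level genes was not tested.

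Markers of other cell types were read in the same libraries. Of 14 tested T and NK cell markers 1 was higher, Zap70, and 1 was lower (14.3% called, against 5.38% of all tested genes). The lower one was Cd2, an adhesion receptor of T cells that some B cell precursors also carry, with 498, 628 and 610 in vector cells and 136, 134 and 129 in TFEB-ERT2 cells (4.30-fold, adjusted p = 3.5e-08, limma). Both calls held under every alternative, and the summed level of the whole list was 1679 to 2044 in vector cells and 1857 to 2080 in TFEB-ERT2 cells, with 2 of 21 listed markers at 0 in each line. Of 8 tested myeloid markers 0 were called, and 7 of the 8 averaged under 100. The sum over 25 listed genes was higher in TFEB-ERT2 cells, 298 to 390 against 196 to 219, with 6 and 12 markers at 0. The part of the number of genes with a read in that sum was not tested. Of 12 tested stromal and endothelial markers 0 were called, with sums over 19 genes of 2056 to 2099 against 1788 to 1951. The 1 tested marker of red cells and platelets was not called. Of 6 plasma cell markers Xbp1 was higher and Irf4 lower (33.3% called). In bulk RNA, fewer cells of a type and less RNA per cell cannot be told apart, and the part of other cells in the line differences was not tested.

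Called genes were spread over the genome. The share of tested genes called ran from 3.75% on the X chromosome to 7.39% on chromosome 13. For genes averaging 100 or more, the median log2 difference of a chromosome stayed between -0.04 and 0.02. In windows of 20 neighbouring genes with such a mean, the lowest median, -0.27, was at chr13:21831792-23574915, a histone gene cluster in which Hist1h2ae, Hist1h2bg, Hist1h2bf and Hist1h2ad were called. The highest, 0.26, was at chr5:105699963-108647770, with 0 calls. With low-level genes included, the highest median was 1.28, at chr16:65815189-85803113, where 9 of 20 genes had a mean of at least 100 and Gbe1, Robo2 and Samsn1 were called. There were 31 runs of neighbouring tested genes called the same way, and the longest had 4. They held 66 of the 702 called genes with a position. The number to expect from unrelated neighbours was not worked out. Of the 58 tested neighbours of the 30 genes with the largest differences, 7 (12.1%) were called, against 5.38% of all tested genes. In the direction of the named gene were 5, namely Phlpp1, Tcf25, Tubb3, Eif3h and Tmem131, which lies beside Zap70 (log2 0.30). In the opposite direction were Foxp4 beside Tfeb (log2 -0.38, adjusted p = 0.015, limma) and 2310015A10Rik beside Actn1 (log2 1.17, adjusted p = 0.049).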

How the data were processed

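RNA-seq measured total RNA of cultured lymphoma cells in 12 libraries; the kit was NuGEN's Ovation for mouse (labels' protocols). The deposited values are a signal, normalized read counts that the authors made by dividing each library's gene reads by 1 size factor. STAR 2.5.3, HTSeq 0.6.1, DESeq2 1.6.3 and mm10 are listed per the submitters' processing notes. Not given in the sources used here are their roles, the annotation and strand use. In every library 100% of values were whole multiples, within 0.001, of the value of 1 read, so whole reads (11849029 to 22109283 per library) were recovered. Libraries of a vehicle group differed beyond counting noise (chi-square per degree of freedom 15.6 to 25.5).

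Genes reaching a value of 10 in 3 or more of 12 libraries were tested with limma 3.58.1 (R 4.3.3) on log2(value + 1), with a mean for each of 4 groups, all 12 libraries and a variance trend, and adjusted by Benjamini-Hochberg over 13111 genes. Fold changes are on that scale and can misstate low genes. The script was tested on simulated data. Alternatives were pseudocounts of 0.5 and 10, filters, scalings, library weights, no trend, fewer groups, a replicate block, 1 library left out, and edgeR 4.0.16 and DESeq2 1.42.0 on the whole reads, on which edgeR called 646 genes. Exact permutation of 3 against 3 libraries cannot go below p = 0.1.

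The members and the 36 gene lists were chosen with earlier results of these data known. Named genes were Tfeb, Esr1, Myc, Mitf, Tfe3, Tfec, the 15 largest called rises and falls with a mean of at least 100 and no overlap (predicted genes and Rn45s left out), genes at 0 in 1 line, up to 4 called members of each list described, and the called genes of the extreme windows. Neighbouring genes, Psap, Ctsz and Irf4 were named after their values were seen. Positions and promoters come from RefSeq (GRCm38.p6), which matched 13056 of 13111 tested symbols. Immunoglobulin segments were not analysed here.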

Additional observations from a re-analysis of the deposited data

Results flagged for a closer look

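For 43 of the 101 named genes tested the line difference in 4-OHT differed from that in vehicle (adjusted p at most 0.0272, limma interaction term). Each of the 4 groups had 3 libraries. Values below are the log2 line difference (TFEB-ERT2 minus vector cells) in 4-OHT minus that in vehicle. The term was called for 15.8% of all tested genes. Most named genes were chosen by their differences in vehicle, and the term uses the same vehicle values. The 43 therefore cannot be read against that share.

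In 13 genes the line difference was below 0 in vehicle and above 0 in 4-OHT. These were Actn1 6.38, Sgsh 3.31, Gaa 1.43, Galns 2.66, Lamp1 1.00, Optn 3.21, Mtor 1.93, Plk2 6.65, Cecr2 0.728, Cxcr4 1.78, Itga6 2.66, Psat1 1.87 and Slc1a5 1.06. They include lysosomal genes (Gaa, Galns, Sgsh, Lamp1), the autophagy receptor Optn and Mtor. Of the 13, 12 were called in both treatments, and Cecr2 was not called in 4-OHT (log2 0.12, adjusted p = 0.362, limma). Many of the 12 vehicle calls were unstable. Of 25 alternatives, Optn lost its call in 12, Sgsh in 8, Slc1a5 in 5, Galns and Lamp1 in 4 each, and Plk2 and Itga6 in 2 each. Those of Actn1, Gaa, Mtor, Cxcr4 and Psat1 held under every alternative. In 14 genes it was above 0 in vehicle and below 0 in 4-OHT. These were Il33 -5.22, Polk -0.767, Erg -2.24, Tcf4 -0.852, Cplx2 -2.31, Cish -2.21, Gbp7 -0.668, Selplg -0.59, Aldoc -1.35, Gapdh -0.59, Fads1 -1.04, Scd1 -0.773, Stard4 -0.834 and Scd2 -0.569. Of these 6 were not called in 4-OHT, namely Scd1, Scd2, Polk, Gbp7, Selplg and Gapdh, so for them no turn of sign passed the threshold. The 8 called in both treatments include Il33, the transcription factors Erg and Tcf4, and the desaturase Fads1. Of these 8, Cplx2 lost its vehicle call in 12 of the 25 alternatives, Cish in 3, Aldoc in 2, and Tcf4 and Stard4 in 1 each. For 8 genes the sign was shared and the difference was larger in 4-OHT, namely Fndc1 1.71, Reln -1.42, Litaf -0.692, Rragd 1.35, Xbp1 1.66, Siglecg -2.86, Gbp2 -1.92 and Phgdh -0.407. For the last 8 the sign was shared and the difference was smaller in 4-OHT, namely Tfeb -1.19, Bcl2 -1.77, Lrp1 -2.88, Paip2b -1.25, Cpeb1 3.53, Mbp 2.13, Atp6v1b2 0.959 and Cd2 1.22. Lrp1 and Atp6v1b2 were not called in 4-OHT, which makes 9 of the 43 in all. Tfeb itself is among the last 8, with the line difference of its transcript smaller in 4-OHT.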

How the results depend on the processing

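The count of 705 calls (379 higher, 326 lower) was 1224 (685, 539) with DESeq2 and 1125 with array weights (639 higher), but 259 (140, 119) without a trend in the variance prior and 352 (204, 148) when only the 6 vehicle libraries were fitted. edgeR called 646, 589 of them among the 705. Leaving out 1 library at a time gave 433 to 826 calls, 245 to 468 higher and 185 to 358 lower. The 358 genes called the same way in 4-OHT were 566 with DESeq2, 545 with array weights, 164 without the trend and 216 with only the groups compared, and 251 to 367 when 1 library was left out. The 98 called the opposite way were 175, 169, 24 and 40 under those settings and 56 to 123 when 1 library was left out. The counts in 4-OHT and of the interaction stayed within 1.5 times of 3553 and 2066 under every alternative run; the interaction could not be fitted with only the vehicle groups. Of 93 called named genes 47 kept their call under all 25 alternatives. Mitf, never called, had its sign reversed without TFEB-ERT2 vehicle library 2 (log2 0.0079, adjusted p = 0.998, limma), and leaving out 1 library gave it -1.36 to 0.0079. The causes of these shifts were not tested.

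The replicate numbers share no stated origin, and deviations of same-numbered vehicle libraries correlated at 0, 0.14 and -0.15. No pairing by number was seen, but deviations from means of 3 libraries cannot settle whether there was one. With the replicate number as a block 723 genes were called (389 higher, 334 lower), and of the 6 libraries only vector library 2 correlated best with its own number. By counting error alone, a gene with 0 reads may still have an expected count of up to 3 reads. The number of genes with a read did not follow depth. It was 15817 in TFEB-ERT2 vehicle library 3, with 11849029 reads, and 11390 in vector vehicle library 3, with 19264885 reads. The cause was not tested.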
